A study of Homo sapiens with 20 samples.

Results

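Occupancy of the genome by the transcription factor FRA1 was described in A375 cells, an established human melanoma line, from 4 of the 8 Cut&Run samples and of the 20 samples of the series. FRA1 was targeted by its antibody in 3 replicates, and 1 sample received IgG, an antibody without a target, as a measure of background. In Cut&Run, an antibody held in permeabilized cells guides a nuclease, and the fragments it releases are sequenced. The members are all 54563 consensus peaks, the regions counted in every Cut&Run sample of A375 and of 1205Lu, a second melanoma line, with positions on GRCh38. The strongest of them and the loci that gather many of them were then described. As a second readout, RNA of A375 cells treated with non-targeting siRNAs (si-NT, 3 samples) or with siRNAs against FOSL1, the gene that encodes FRA1 (si-FOSL1, 3 samples), was compared for the genes near them.

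FRA1 belongs to the FOS family, which pairs with JUN proteins to form AP-1. The pair binds the DNA sequence TGACTCA, often far from gene starts, at enhancers that become active downstream of growth factor and ERK signaling. Oncogenic RAS or BRAF stabilizes FRA1, and FRA1 is known for its part in cell migration, invasion and the less differentiated states of melanoma.

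The sequences that follow were read from the GRCh38 genome inside the strongest peaks and inside the strongest peak of FOSL1 and of AXL, CDK6 and FSCN1, the genes that the study followed up. They show the AP-1 sequence (capitals, TGACTCA) with 11 bases on either side, on the strand that carries it, 5′ to 3′. The bases around the capitals differ from site to site, and the peak near HS3ST3A1 holds 3 copies in overlapping windows. Labels name the peak, and the copy printed for TNFRSF12A lies just past the end of that gene.
FOSL1 upstream, first copy (chr11:65915820-65915848, + strand): ccagcatctcaTGACTCAgccacttccac
FOSL1 upstream, other copy (chr11:65915904-65915932, - strand): cgtgccgggacTGACTCAgcctccagcag
AXL (chr19:41225891-41225919, + strand): gtccctctatcTGACTCAgggcgtgcccc
CDK6 (chr7:92752426-92752454, - strand): tgtggtcctaaTGACTCActgcattcttt
FSCN1 (chr7:5592114-5592142, + strand): atgtcggccacTGACTCAaccactctccc
TNFRSF12A (chr16:3022427-3022455, - strand): ccgcggctggcTGACTCActccctccctc
THSD4 (chr15:71295433-71295461, + strand): ttaatggggacTGACTCAttgagattggc
ACTN4 (chr19:38684190-38684218, - strand): aattacacaaaTGACTCAcatttattgag
TRPC4 (chr13:37657329-37657357, + strand): agaattcaatcTGACTCAttggccctaga
near HS3ST3A1, first copy (chr17:13347649-13347677, - strand): attctccacccTGACTCAttctgatttcc
near HS3ST3A1, middle copy (chr17:13347666-13347694, - strand): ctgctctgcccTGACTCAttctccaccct
near HS3ST3A1, last copy (chr17:13347694-13347722, - strand): ctcctccatccTGACTCAttccaattccc

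The counts were raw reads per peak. Their totals were 3354095, 5316527 and 4256577 in FRA1 replicates 1, 2 and 3, and 383994 in the IgG sample, so that each FRA1 sample held 8.73 to 13.8 times as many reads in peaks. The peaks were 295 to 12529 bp wide (median 715 bp) and covered 43.8 Mb. Over the 54563 peaks, log2(count + 1) correlated with r = 0.958 to 0.965 among the FRA1 samples and with r = 0.661 to 0.669 between FRA1 and IgG, where the points share their peaks and widths. Once their totals were allowed for, counts of any pair of FRA1 samples differed slightly beyond counting error, with a chi-square of 1.09 to 1.25 for each degree of freedom. The labels do not say whether replicates were separate cultures, so p-values measure only the spread between these samples. The peaks were called from Cut&Run reads of this series, so an excess over IgG inside them is a description and not independent evidence of binding.

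FRA1 counts stood above IgG counts in most peaks. The median peak held 30, 47 and 38 reads in the 3 FRA1 samples and 6 in IgG. At least 10 reads were counted in 86.5%, 93.0% and 90.5% of the peaks with FRA1 and in 22.6% with IgG. All 3 FRA1 samples were above IgG in 51439 peaks (94.3%), and the mean FRA1 count was not above IgG in 1550 (2.84%). A peak is called enriched here by a rule of size with no test. Every FRA1 sample had to hold 10 reads or more and at least 4 times (IgG + 1) reads. This held for 31310 of 54563 peaks (57.4%).

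Enriched peaks held a median mean FRA1 count of 70 beside an IgG count of 6, and the mean FRA1 count over the IgG count plus 1, called the ratio below, had a median of 9.75 and lay between 5.25 and 30.5 in the middle 90% of them. The other 23253 peaks had a median mean FRA1 count of 19.3 and a median ratio of 3.50. Of these, 8289 fell short of 10 reads in a FRA1 sample and 14964 fell short of 4 times (IgG + 1). Multiples of IgG below are of that sum. The limit cuts through a continuous range. A peak just inside it held 32, 37 and 35 FRA1 reads beside 7 with IgG, and a peak just outside it held 103, 153 and 134 beside 25. Limits of 8, 16, 32 and 64 times left 14585, 4486, 576 and 20 peaks.

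**Figure D1:**
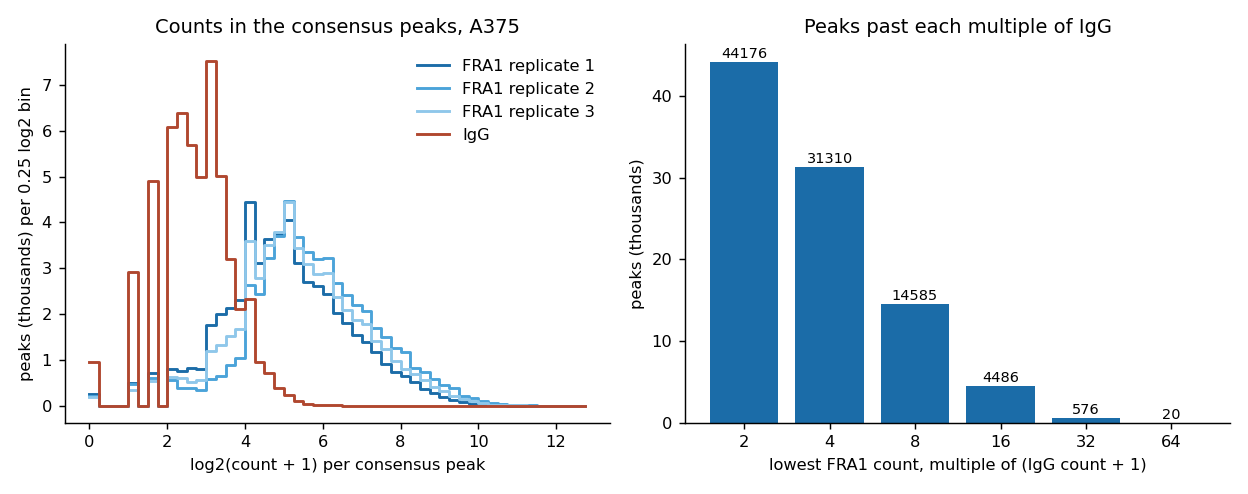
Left, number of consensus peaks (axis in units of 1000) at each log2(count + 1) in the 3 FRA1 samples and the IgG sample of A375. The FRA1 curves lie to the right of the IgG curve, with medians of 30, 47 and 38 reads against 6. Right, number of peaks (same units) in which each FRA1 sample held 10 reads or more and reached the given multiple of (IgG + 1). It goes from 44176 peaks at 2 times to 20 at 64 times.

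With edgeR's quasi-likelihood test at equal library sizes, 42717 of 51434 peaks tested were called higher with FRA1 (83.1%; adjusted p under 0.05 and log2 fold change over 2), 11407 of them not enriched by the rule of size. All 31310 enriched peaks were among the calls, but the rule of size uses the same counts and fixes the fold part of a call. The median log2 fold change was 2.98 with a median SE of 0.76. There was 1 IgG sample, so the spread came from the FRA1 samples and IgG was assumed to vary as they do. At equal library sizes this spread also holds their differences in total. Equal sizes were used because the totals known are totals in peaks, which move with the signal itself. The number of calls rested on that choice. With TMM scaling of the totals in peaks, 2222 of 52411 peaks were called higher and 903 lower, with a median log2 fold change of 0.02. With the totals alone, 657 were higher and 2290 lower, with a median of -0.50. Folds below are at equal library sizes unless said otherwise.

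Reads of the FRA1 samples were concentrated in a minority of peaks. The strongest 6425 peaks (11.8%) held as many FRA1 reads as all others together, and the 500 strongest enriched peaks held 10.4% of the FRA1 reads. The 20 enriched peaks with the highest mean FRA1 count held 0.935%. Their counts ran from 1115 to 4802, from 1843 to 6520 and from 1526 to 6369 in FRA1 replicates 1, 2 and 3 (medians 1403, 2113 and 1763.5) and from 27 to 463 with IgG (median 38.5). Their ratio was 12.7 to 64 (median 48.3). FRA1 above IgG was part of how they were chosen. All 20 held at least 1 AP-1 sequence (median 3), beside 70.0% of all enriched peaks and 90.0% of the 500 strongest. They were 1505 to 12529 bp wide, against a median of 848 bp in enriched peaks, and a wider peak has more room for copies. An annotated transcript start was within 3 kb of 5 of the 20, beside 32.3% of all peaks and 29.9% of enriched peaks. The median distance of the 20 to the nearest start of a protein-coding gene was 107 kb. Under TMM 16 of the 20 were still called and under totals alone 11, and their log2 fold changes stayed above 0 under each (lowest 0.72 and 0.20).

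The site with the most reads, chr21:8988420-9000948, was also the one with the most IgG reads of all peaks. It held 4802, 6520 and 6369 FRA1 reads and 463 IgG reads over 12529 bp, the widest peak of the set, at starts of a long noncoding transcript and 1521 kb from TPTE, the nearest protein-coding gene start. Its log2 fold change of 3.67 ± 0.49 (SE) was the lowest of the 20. The neighbouring peak chr21:9001542-9007176 held 359, 499 and 486 FRA1 reads beside 112 IgG reads and was not enriched.

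Other peaks among the 20 overlapped genes or their starts. The peak in TNFRSF12A, which encodes the receptor of the cytokine TWEAK, also covered the starts of HCFC1R1 and THOC6 (chr16:3020270-3024395) and held 1995, 3113 and 2586 FRA1 reads beside 79 IgG reads, a log2 fold change of 5.02 ± 0.60. The peak in ACTN4 (chr19:38683136-38685128, overlapping an exon), which encodes an actin crosslinker, held 1521, 2257 and 1866 reads beside 37, a log2 fold change of 5.66 ± 0.65. At the start of HRH1, a histamine receptor, there were 1521, 2081 and 1741 reads beside 33. In an intron of PTGFR, a prostaglandin receptor, 1115, 1974 and 1562 reads stood beside 30, in a peak with 6 AP-1 sequences, the most of the 20.

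Other strong peaks were in introns of large genes. The peak in an intron of THSD4, a protein of the extracellular matrix (chr15:71294440-71296553), held 1540, 2647 and 2050 FRA1 reads and 41 IgG reads. The intron of IL1RAPL1, a synaptic protein of the interleukin 1 receptor family (chrX:29661072-29663788), gave 1335, 2255 and 1786 beside 27, the highest ratio of the 20. The intron of the cation channel gene TRPC4 (chr13:37655959-37658554) gave 1324, 2145 and 1829 beside 34. An intron of DLGAP1, a scaffold of synapses, gave 1452, 2217 and 1928 beside 67. In TXNRD1, the thioredoxin reductase of the cytosol, an intronic peak 3.10 kb from the start of the gene gave 1253, 1892 and 1577 beside 40.

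NFATC2, a transcription factor of calcium signaling, was the nearest protein-coding gene to 2 of the 20 strongest peaks. The intronic one (chr20:51446276-51447856) held 1459, 2014 and 1698 FRA1 reads beside 40, and the one 195.7 kb from its start held 1387, 1971 and 1679 beside 32. NFATC2 RNA did not pass the test: CPM, which are counts scaled to library size, were 7.58, 9.09 and 8.39 with si-NT against 6.33, 7.60 and 7.38 with si-FOSL1, so the groups overlapped. Peaks far from any protein-coding start were also among the 20. The one 253.6 kb from HS3ST3A1 held 1593, 2544 and 2130 FRA1 reads beside 38. The one 731.9 kb from CHRM3 held 1339, 1843 and 1553 beside 50. At PVT1, a long noncoding RNA gene next to MYC, 1292, 1994 and 1526 reads stood beside 33. Unlike these, a peak over the start of the protein-coding gene WDR81 held 1419, 2336 and 1890 beside 62. It also overlapped MIR22HG, the host gene of miR-22.

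**Figure D2:**
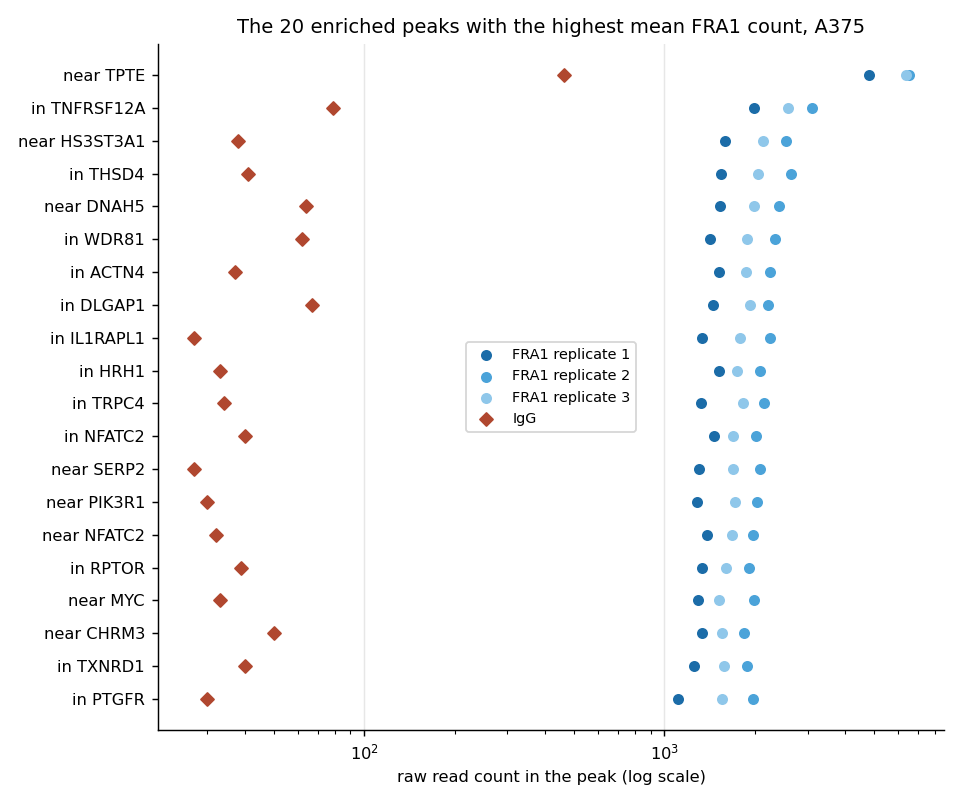
Raw read counts (log scale) of the 20 enriched peaks with the highest mean FRA1 count, each named by the gene it lies in or is nearest to, with 1 dot per FRA1 replicate and a diamond for IgG. The FRA1 samples sit to the right of IgG, which the choice of enriched peaks fixes. IgG reaches 463 reads in the peak nearest to TPTE and 27 to 79 reads in the others.

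Ranked by the ratio to IgG instead of the FRA1 count, other and weaker peaks came first, and none of the 20 strongest was among the 10 highest. The first lay in an intron of GPR158 and held 127, 195 and 118 FRA1 reads with 0 in IgG, which is at least 48.9-fold higher than the 3 reads that a count of 0 allows. A peak 158.6 kb from USP12 held 82, 145 and 111 reads with 0 in IgG (at least 37.6-fold higher), and one 214.0 kb from COPS8 held 89, 117 and 84 with 0 (at least 32.2-fold higher). The peak 11 kb from the start of BACH1, a repressor that binds a longer form of the AP-1 sequence, held 402, 614 and 525 reads beside 4. In PITPNM2, at a transcript start, 404, 596 and 540 reads stood beside 4. All 10 held an AP-1 sequence, beside 70.0% of all enriched peaks. The ratios rest on 0 to 4 IgG reads, and the peaks were chosen by them, so no test is given.

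The 10 peaks with the most IgG reads lay mostly at gene starts: 9 of them were within 3 kb of a start. The peak over GAPDH, a gene of glycolysis, held 548, 913 and 787 FRA1 reads beside 100 with IgG, and a peak over histone genes (H2BC21, H2AC20 and H2AC21) held 688, 1090 and 972 beside 87. In a 458 bp peak at NEURL4 the samples overlapped, with 62, 83 and 58 FRA1 reads and 83 IgG reads, and a log2 fold change of -0.29 ± 0.52 (edgeR adjusted p = 0.574). Only 3 peaks had a lower FRA1 than IgG level at an edgeR adjusted p under 0.05. They held 1, 2 and 3 FRA1 reads against 11 near OR4F15, 1, 1 and 3 against 15 in C19orf44, and 6, 3 and 3 against 16 in RIOX2.

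The AP-1 sequence was concentrated at the middle of enriched peaks. A copy of TGACTCA on either strand, counted up to 100 bp from the centre, was present in 33.9% of enriched peaks (95% Wilson interval 33.4 to 34.5) and in 21.3% of the others. Windows of the same length 2000 bp away from enriched peaks held one in 3.54%. In the whole peak it was found in 70.0% of enriched peaks and 41.2% of the others, which were narrower. Along enriched peaks its density was 2.22 to 2.24 per kb of peak within 50 bp of the centre and 0.536 to 0.923 per kb beyond 300 bp. Of the other sequences searched on both strands in enriched peaks, GGAATGT of the TEAD family was found near 6.27% of centres and in 2.82% of the windows away from them. CCGGAAG of the ETS family was found near 1.56% against 0.634%, TGTGGTT of the RUNX family near 5.32% against 3.56%, and TGACGTCA of the CREB and ATF family near 0.422% against 0.0862%. Near the centres of peaks not enriched, the TEAD and RUNX sequences were rarer (4.68% each). The ETS (2.17%) and the CREB and ATF (0.529%) sequences were more frequent there than in enriched peaks. None of these sequences contains TGACTCA. A match is a run of letters, not a measured binding site.

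Stronger peaks were wider and held more copies rather than a higher density. Between the 3131 weakest and the 3131 strongest enriched peaks by mean FRA1 count, the median width went from 504 to 1407 bp and the AP-1 sequences per peak from 0.689 to 1.68, while their density went from 1.3 to 1.04 per kb. In the 500 strongest, 90.0% held TGACTCA somewhere and 25.2% (interval 21.6 to 29.2) within 100 bp of the centre. Among peaks of like width, more copies went with more FRA1 reads in the wider peaks. In enriched peaks of 1000 to 1400 bp the median mean FRA1 count was 118.5 with no copy (n = 1688), 130.3 with 1 (n = 2823), 167.7 with 2 (n = 1492) and 197.3 with 3 or more (n = 417), while the IgG median was 10, 9, 9 and 9. In peaks of 500 to 700 bp the same counts were 37, 36, 41.8 and 41.3. The quartile ranges overlapped between all numbers of copies in both width classes. Peaks are not replicates, so these medians are descriptions.

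**Figure D3:**
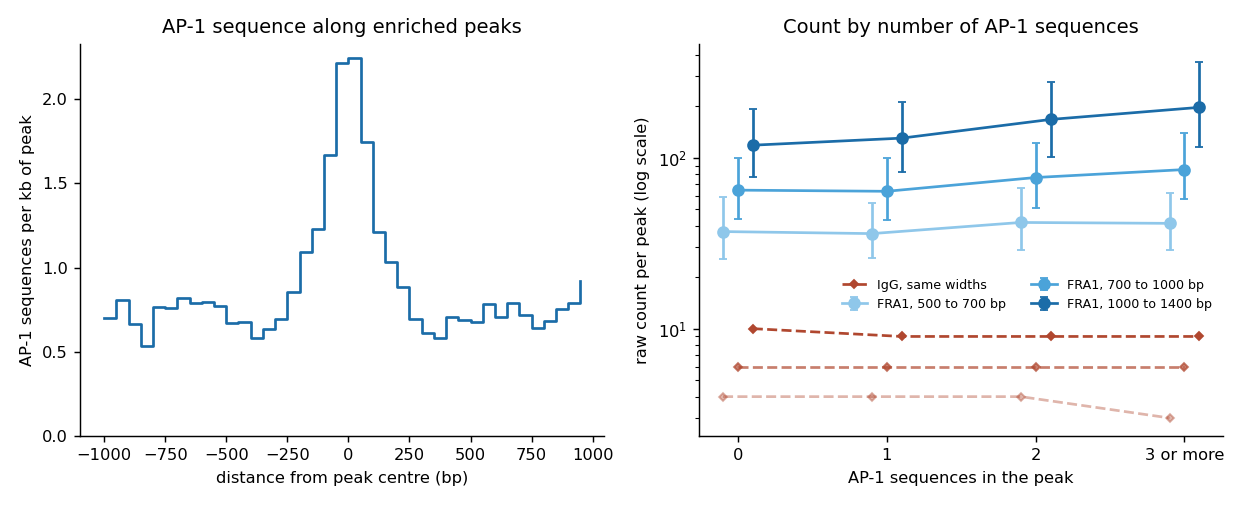
Left, AP-1 sequences (TGACTCA, both strands) per kb of enriched peak against the distance from the peak centre in bp, highest within 50 bp at 2.24 per kb. Right, median mean FRA1 count (log scale) of enriched peaks with 0, 1, 2 or at least 3 AP-1 sequences in 3 width classes, with bars from the 25th to the 75th percentile and the IgG medians of the same classes as diamonds. In peaks of 1000 to 1400 bp the FRA1 median goes from 118.5 to 197.3 reads while IgG stays at 9 to 10.

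Enriched peaks lay mostly away from gene starts. An annotated transcript start was within 3 kb of 29.9% of them (9372 peaks), beside 32.3% of all peaks. Of the enriched peaks, 4.52% overlapped an exon farther away, 37.7% were intronic and 27.8% intergenic. Background differed between these classes. Promoter peaks had an IgG median of 9.11 reads per kb against 7.21 to 7.58 in the others, and 53.1% of them were enriched (52.4 to 53.9) against 58.7% to 60.5% of the others. AP-1 sequence was scarcer at starts as well: 13.5% of the 7784 peaks that cover a start had a copy this close to the centre, as did 24.3% of those up to 1 kb away and 30.4% to 32.4% of those farther away. The peaks over starts had a GC content of 59.1% against 39.6% to 47.1% in the others. In the 500 strongest peaks the promoter share was 35.6% (31.5 to 39.9).

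Loci that gather FRA1 peaks were found by joining enriched peaks under 10 kb apart. This gave 23793 loci, of which 5201 held at least 2 enriched peaks (40.6% of all enriched peaks), 185 held at least 5 (1073 peaks, 3.43%) and 4 held at least 10. The number of loci with at least 5 depends on the replicates and the join: it was 303 without FRA1 replicate 1, the sample with the lowest total, and 189 and 202 without replicate 2 or 3. The 15 loci with the most peaks held 8 to 13 each over 28.3 to 66.2 kb. Of the 182 enriched peaks in the loci named, 182 were called at equal sizes, where the rule of size fixes the fold part. Under TMM 20 were called and with totals alone 10, and 159 and 112 stayed above a log2 fold change of 0.

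The densest locus spanned the keratin genes KRT80 and KRT7 (chr12:52181643-52247857), with 13 enriched peaks and 15 AP-1 sequences over 66.2 kb. Summed over these peaks there were 1731, 2695 and 2168 FRA1 reads and 91 IgG reads. The reads were spread over several peaks: the strongest held 433, 635 and 515 beside 21, and the next held 395, 652 and 512 beside 11. For KRT80 the si-NT samples had 170.3, 164.4 and 163.3 CPM and the si-FOSL1 samples 95.8, 89.2 and 86.8. Its log2 fold change of 0.87 ± 0.03 was under the limit of 1. KRT7 had 5.42, 5.39 and 4.6 CPM against 5.40, 6.29 and 5.00, groups that overlapped (edgeR adjusted p = 0.549).

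The next loci by number of enriched peaks were at SMURF2, PTK2 and ZSWIM6, with 12, 11 and 10, followed by 5 loci of 9, EPHA2 among them. At SMURF2, a ubiquitin ligase of TGFβ signaling, 12 enriched peaks (chr17:64654950-64709176) summed to 1162, 1748 and 1433 FRA1 reads beside 94. Most of these peaks were intergenic, outside the gene. At PTK2, the focal adhesion kinase FAK, 11 peaks held 1261, 1871 and 1571 reads beside 66, and most of them also lay outside the gene. A single intergenic one, 35.2 kb upstream of the start, held 708, 1052 and 849 beside 16. At EPHA2, an ephrin receptor, 9 peaks in and beside the gene (chr1:16138684-16189512) held 2010, 3246 and 2767 reads beside 187. SMURF2 RNA overlapped between the groups, with 138.7, 137.5 and 144.6 CPM in the si-NT samples against 148.2, 136.0 and 139.1 in the si-FOSL1 samples.

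The LMNA locus, which encodes the nuclear lamins A and C, had the highest summed FRA1 count of the 15 (chr1:156096384-156130812). Its 8 peaks summed to 2736, 4043 and 3261 reads beside 181 with IgG and held 14 AP-1 sequences, and the strongest held 932, 1291 and 1062 beside 58. A locus of 8 peaks 114.3 kb from the start of TGFB2, which encodes a TGFβ ligand, was dominated by 1 peak with 1028, 1795 and 1450 reads beside 40. TGFB2 had a large RNA difference, in the direction of more RNA after silencing: 12.9, 9.90 and 11.1 CPM in the si-NT samples against 45.0, 48.8 and 43.3 in the si-FOSL1 samples, a log2 fold change of -2.02 ± 0.08 (edgeR adjusted p = 1.95e-16). The other 9 of the 15 held 8 to 10 enriched peaks each. Those at ZSWIM6, PRKCH, SLC2A1, PDLIM1 and SEMA7A overlapped the gene, while the nearest protein-coding starts to the other 4 were UACA at 11.2 kb, FGGY at 139.5 kb, BCAS1 at 143.0 kb and MARCKS at 471.8 kb. SLC2A1, the glucose transporter GLUT1, had 9 that summed to 1047, 1609 and 1287 reads beside 96.

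Ranked by summed FRA1 reads less IgG, the LMNA, TGFB2, EPHA2 and KRT80 loci were again among the first 15. CAPN2, the protease calpain 2 of focal adhesions, joined them with 7 peaks and 2262, 3379 and 2809 reads beside 117, of which the peak over its start held 953, 1397 and 1188 beside 35. At AHNAK, a large scaffold protein under the cell membrane, 5 peaks held 1932, 2761 and 2319 reads beside 143. Its RNA had 2913, 2921 and 2917 CPM in the si-NT samples against 1724, 1754 and 1718 in the si-FOSL1 samples (log2 fold change 0.75 ± 0.01). BCL9L, a coactivator of β-catenin, had 5 peaks with 1717, 2864 and 2283 reads beside 100, and its RNA differed by 0.89 ± 0.02 on the log2 scale. Both were under the fold limit.

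**Figure D4:**
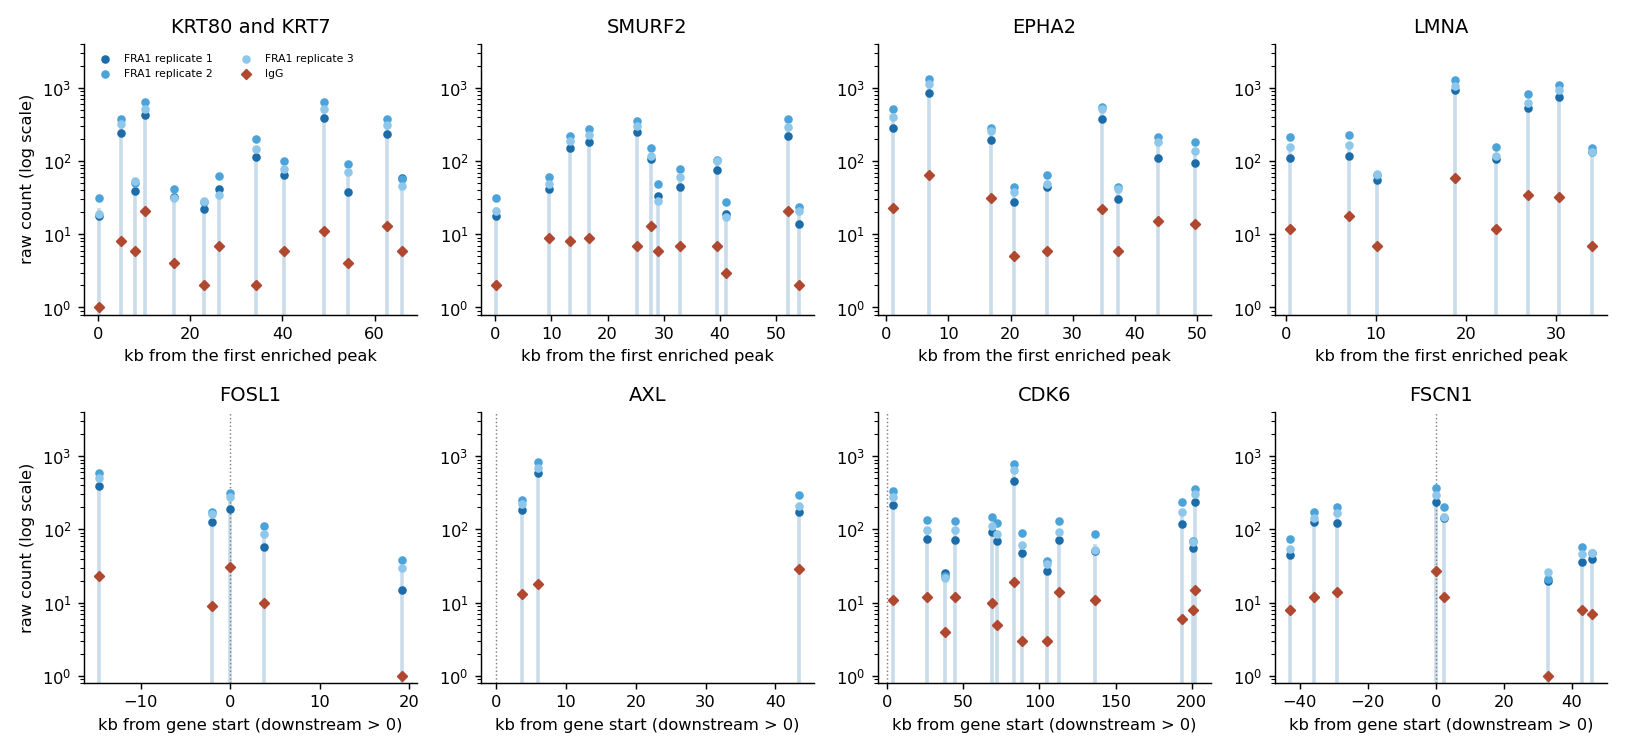
Raw counts (log scale) of every enriched peak of 4 of the densest loci (upper row, kb from the first enriched peak of the locus) and of the enriched peaks of FOSL1, AXL, CDK6 and FSCN1 (lower row, kb from the gene start, dotted line), with 1 dot per FRA1 replicate and a diamond for IgG. Peaks that were not enriched are not drawn, so that FRA1 above IgG is fixed by the choice of peaks. The KRT80 and KRT7 locus holds 13 peaks over 66.2 kb, and the enriched peak of AXL with the most reads lies 5.96 kb downstream of its start.

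Of 13 peaks over FOSL1 and up to 50 kb to either side, 5 were enriched. The strongest lay 14.6 kb upstream (chr11:65915192-65916574) with 389, 596 and 499 reads beside 23, a log2 fold change of 4.42 ± 0.70, and held both copies of TGACTCA printed above. C11orf68 is the protein-coding gene with the start nearest to this peak. The peak over the start held 192, 314 and 273 reads beside 31. The FOSL1 RNA, the target of the siRNAs, had 419, 431 and 415 CPM in the si-NT samples against 26, 26 and 26.3 in the si-FOSL1 samples, a log2 fold change of 4.01 ± 0.03 for si-NT over si-FOSL1.

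AXL, CDK6 and FSCN1 had 3, 14 and 8 enriched peaks of 6, 20 and 13 peaks. In AXL, a receptor tyrosine kinase of invasive melanoma cells, the strongest lay inside the gene (chr19:41225180-41226590) with 592, 837 and 687 reads beside 18, a log2 fold change of 5.28 ± 0.72. In CDK6, a kinase of the G1 phase of the cell cycle, it lay 83.7 kb into the gene body (chr7:92752005-92752876) with 464, 791 and 645 reads beside 19 (5.05 ± 0.72). In FSCN1, which encodes the actin bundling protein fascin, it covered the gene start (chr7:5591323-5593367) with 236, 365 and 292 reads beside 27 (3.46 ± 0.68). All 30 enriched peaks of the 4 genes were called at equal sizes, where the rule of size fixes the fold part. Only 2 were called under TMM, those of AXL (2.33) and CDK6 (2.09), and 0 with totals alone. The FSCN1 peak was at 0.50 under TMM (edgeR adjusted p = 0.218) and at -0.02 with totals alone.

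The RNA of these 3 genes was lower after silencing. AXL had 721, 725 and 734 CPM with si-NT and 197, 190 and 193 with si-FOSL1 (log2 fold change 1.91 ± 0.02). CDK6 had 470, 485 and 474 against 235, 235 and 227 (1.03 ± 0.02), and FSCN1 113, 114 and 113 against 46.1, 47.2 and 45.5 (1.29 ± 0.04). In none did the groups overlap, but this also held at small folds, as for ACTN4 (log2 fold change 0.15). The share of all genes without overlap was not counted. All 3 passed edgeR's test, as did 939 of 16899 genes (5.56%), of which 471 (2.79%) were higher and 468 (2.77%) lower with si-NT.

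To see which kinds of genes sat near FRA1 peaks, enriched peaks within 50 kb of the start of each protein-coding gene were counted for 8 lists of 15 genes. Over all 20046 protein-coding genes the median was 1 and the highest number 13, 1264 genes (6.31%) had at least 5, and 5517 (27.5%) had an enriched peak within 3 kb of one of their transcript starts. The lists were chosen with earlier results of these data known and hold genes of sites named above, such as ACTN4, CAPN2, FSCN1 and AXL. Their ranking is a description only. Among the 8 lists, genes of the invasive melanoma state and genes of actin and adhesion had the most. In each of these 2 lists 10 of 15 genes had at least 5 enriched peaks and the median was 6, and 13 and 14 of 15 had an enriched promoter peak. Neighbouring genes can share a peak, and AXL and CCND1 each stand in 2 lists.

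In the invasive list the highest number of enriched peaks was 8, and TNC, PLAU, ITGA3, CD44 and NT5E had 7 each. The strongest near ITGA3, an integrin that binds laminin, held 799, 1321 and 1015 reads beside 34. TNC, which encodes the matrix protein tenascin C, had 362, 703 and 490 beside 18. In the actin and adhesion list, CAPN2 had 9, FSCN1 8, and ACTN4 and ZYX, which encodes zyxin of focal adhesions, 7 each. The only gene of that list with no enriched peak within 50 kb of its start was TNS1.

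The AP-1 family itself had a median of 4, with at least 5 enriched peaks near 6 of 15 genes. Near ATF3 there were 8, of which the strongest held 529, 912 and 752 reads beside 32, and near JUN and FOSB 7 each. The ERK output list had a median of 2, but DUSP5 and IER3, which are induced by ERK, had 10 and 9. The peak over the start of DUSP5 held 241, 378 and 286 reads beside 26. SPRY1, SPRY2, SPRED1 and ETV1 of the same list had 0. YAP and TEAD factors and targets had a median of 3 and 3 of 15 genes with at least 5, CCN1 among them with 7.

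Genes of the melanocyte lineage and of other tissues had medians of 1 and 1, the same as all protein-coding genes, and 0 of 15 in either list had at least 5, beside 6.31% of all genes. TYR and DCT, enzymes of pigment synthesis, had none, while MITF and PMEL had 4 each. KIT was an exception by strength: the enriched peak 3.07 kb from its start held 722, 1178 and 948 reads beside 22, and its RNA count was 2 to 6 per si-NT sample. The G1 list had a median of 2, with CDK2 and CDKN1A at 5. The lists also differ in RNA level. The median over the genes tested was 424 CPM for actin and adhesion, 215 for the invasive list and 6.47 for the melanocyte lineage, and 12.7% of all genes at 100 CPM or more had at least 5 enriched peaks. The part of the RNA level in these counts was not tested. As a check of the line's label, the 15 melanocyte genes summed to 128.2 to 130.2 CPM in the si-NT samples and the 15 genes of other tissues to 0.786 to 1.66, with ALB, HBB, HBA1 and CRYAA among those at 0. These sums are CPM on raw library totals. At least 10 counts in each si-NT sample were found for 7 of the 15 melanocyte genes, MITF, SOX10 and PAX3 among them. Pigment genes of the list were near 0, with 3, 1 and 2 counts for TYR and 2, 3 and 2 for MLANA.

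Many FRA1 peaks near a gene did not go with a called change of its RNA. Of the 1013 tested protein-coding genes with at least 5 enriched peaks (7.48% of 13545), 33 were higher with si-NT (3.26%) and 24 lower (2.37%), beside 338 (2.50%) and 374 (2.76%) of all those tested. Among the 3846 genes with no enriched peak within 50 kb, 77 (2.00%) were higher and 106 (2.76%) lower. The groups also differed in RNA level, with a median of 32.1 CPM for at least 5 peaks and 17.1 CPM for none, and the part of this was not tested. With an enriched promoter peak 2.55% of genes were higher and 2.57% lower, and without one 2.47% and 2.86%.

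Within the lists, the genes that passed the RNA test went in both directions. Of all protein-coding genes tested, 2.50% were higher and 2.76% lower with si-NT. FOSL1 is the target of the siRNAs, and AXL, CDK6 and FSCN1 are the genes that the study followed up. In actin and adhesion 3 of 15 were higher with si-NT: FSCN1, MYH9, the heavy chain of nonmuscle myosin (449, 454 and 436 against 210, 212 and 208 CPM), and LPP, a zyxin relative (110, 110 and 109 against 43.7, 40.4 and 41.5). None of the 15 was lower. In the invasive list AXL was higher, while PLAU, the urokinase (1.70, 1.69 and 1.98 against 4.91, 5.99 and 5.58), was among those lower with si-NT. In the G1 list CDK6 was higher and CDKN1A, the cell cycle inhibitor p21 (186, 189 and 187 against 403, 398 and 396), lower. AP-1 members FOSL1 and BATF3 were higher, as were TEAD3 and AXL in the YAP and TEAD list, while TGFB2 and the ERK inhibitor SPRY1 were lower. In the melanocyte list 0 of 7 tested genes were higher and PMEL and EDNRB were lower, at under 5 CPM with si-NT.

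**Figure D5:**
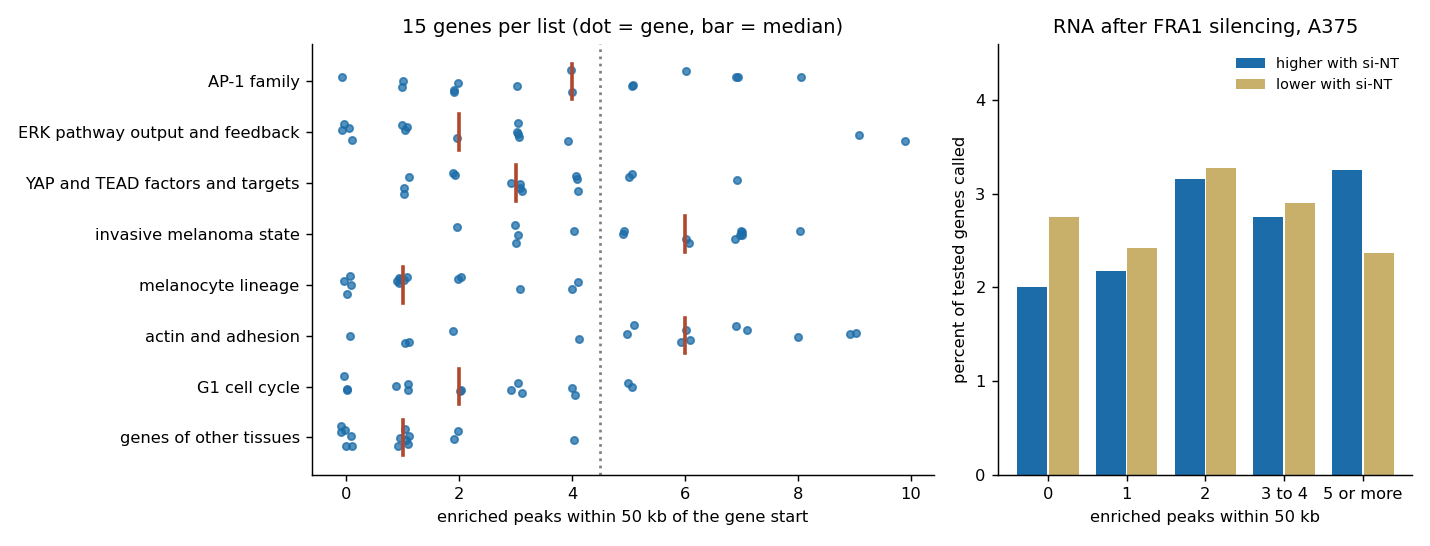
Left, enriched peaks within 50 kb of the gene start for 8 lists of 15 genes (dots, genes; bars, list medians; dotted line, limit to at least 5), with medians of 6 for the invasive and the actin and adhesion lists and 1 for the melanocyte lineage and other tissues. Right, percent of tested protein-coding genes called higher or lower with si-NT by the number of enriched peaks within 50 kb, between 2.00% and 3.27% in each class.

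In 1205Lu cells far fewer of these peaks met the same rule. Of the 31310 peaks enriched in A375, 2453 (7.83%) were also enriched in 1205Lu, beside 1418 of the 23253 peaks not enriched in A375. In 1205Lu the FRA1 totals in peaks were 583750, 897407 and 781542 and the IgG total 314569. Among the 1205Lu FRA1 replicates the chi-square for each degree of freedom was 1.90 between 1 and 2, 1.62 between 1 and 3 and 1.06 between 2 and 3. The shared part grew with strength in A375, from 2.14% of the 3131 weakest to 28.7% of the 3131 strongest, and it was 240 of the 500 strongest and 16 of the 20 strongest. Of the 139 enriched peaks in the 15 densest loci, 8 (5.76%) were shared. The TRPC4 peak held 5, 8 and 13 FRA1 reads and 3 IgG reads in 1205Lu, and the peak nearest to CHRM3 held 6, 3 and 4 beside 9, while the A375 FRA1 samples held 1324 to 2145 and 1339 to 1843 reads there. The difference between the lines was not tested, and it cannot be told apart from the difference in totals.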

How the data were processed

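Cut&Run was analysed in 3 FRA1 and 1 IgG samples of A375 and RNA in 3 si-NT and 3 si-FOSL1 samples. For Cut&Run the authors aligned reads to GRCh38 with Bowtie2 2.4.1, used MACS2 for peaks and GenomicRanges for a consensus of them, and deposited raw counts of reads by peak and sample. Whether the calls were made on single or pooled samples, and with IgG as control, is not given in the sources used here. For RNA the authors aligned reads with STAR 2.7.7a and deposited RSEM 1.3.0 expected counts per gene, already rounded to whole numbers. RNA totals in genes were 21621563 to 32518903 counts.

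Counts were used as deposited. The study gives read pairs per Cut&Run library only as a common range, so library sizes were taken as equal. Peaks and genes were fitted with edgeR 4.0.16 in R 4.3.3 (filterByExpr, glmQLFit, glmQLFTest, Benjamini-Hochberg over all peaks or genes), RNA with TMM and limits of 0.05 on the adjusted p and 1 on the log2 fold change. CPM are on TMM library sizes, except the sums over lists used to check the line, which are on raw totals. Peaks were annotated with GENCODE 44 of GRCh38: promoter if within 3 kb of any transcript start, then exonic, intronic (long noncoding genes included) or intergenic. Gene starts of protein-coding genes gave the 50 kb windows. It held 99.5% of the tested protein-coding gene identifiers. Sequences were searched with Python 3.11.15 and pysam 0.24.0. Intervals and the floor of 3 reads cover counting error only.

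Sites and genes named are the 20 enriched peaks with the highest FRA1 count, the 10 with the highest ratio and the 10 with the most IgG reads, the 15 loci with the most peaks and the 15 with the highest sum, genes in or nearest to them, AXL, CDK6, FSCN1 and FOSL1, and the 8 lists. Members and lists were chosen with earlier results of these data known. Examples within the lists were chosen after their values were seen, and some list members are counted but not reported here by name.

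The tests were tried on simulated counts. For FRA1 over IgG, 15 of 50 peaks changed by a fold of 4, the limit itself, and 50 of 50 at folds of 8, 16 and 32 were called, with 0 false calls among 50772 peaks. In that simulation the background was the mean of the FRA1 and IgG counts, above the real IgG count in most peaks. Few peaks were changed, unlike in the data. It therefore cannot test the sparse counts of the lone IgG sample or the choice of scaling. For RNA, 99 of 100 genes at a fold of 2.5 and 100 of 100 at 4 were called, with 3 false calls among 16870. Alternatives were other limits, filters, scalings, windows and joins, DESeq2 1.42.0, all 8 Cut&Run samples in one fit, a replicate block and each replicate left out. Backgrounds that use the 1205Lu IgG sample were chosen after seeing the data.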

Additional observations from a re-analysis of the deposited data

How the results depend on the processing

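Of 58 alternatives tried on 8 results, 41 moved a value by less than its spread or, for a count, less than 1.5 times, and 17 moved it more. A change of direction was not scored. With totals alone the median log2 fold change of FRA1 over IgG changed sign, from 2.98 to -0.50. The number of enriched peaks (31310) was 14585 at 8 times IgG and 879 with every sample scaled to the same total. Peaks called by edgeR (42717) were 2222 under TMM and 657 with totals alone. The share of promoter peaks (29.9%) was 19.4% with starts within 1 kb, 10.8% with protein-coding starts alone and 27.6% at 8 times IgG. The AP-1 share of the 500 strongest (25.2%) was 90.0% anywhere in the peak, 12.4% within 50 bp of the centre and 31.0% ranked by count per kb. Loci with at least 5 enriched peaks (185) were 563 joined under 20 kb, 36 under 5 kb and 15 at 8 times IgG. Of the 20 strongest sites, 8 were shared when ranked by count per kb and 0 when ranked by the ratio. Genes called among those with at least 5 peaks (5.63%) were 0 of 12 (0%) within 10 kb, where fewer genes were tested. The other causes were not tested.

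With each replicate left out in turn, enriched peaks were 31478 to 37924, edgeR calls 36491 to 44978, the AP-1 share 25% to 25.2%, loci 189 to 303 (303 without FRA1 replicate 1), shared strongest sites 19 to 20, genes called 910 to 975 (939 with all samples) and the share of called genes near at least 5 peaks 5.64% to 6.43%. The rule asks all FRA1 samples to pass, so leaving a sample out can only add enriched peaks, and that range cannot show a loss. DESeq2 called 41141 peaks and 980 genes, 879 of these genes shared. With the higher of the A375 and 1205Lu IgG counts as background, chosen after seeing the data, 26631 peaks were enriched, and with the 1205Lu IgG sample alone 33240.

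No paired analysis was possible for Cut&Run because the IgG group has 1 sample. For RNA, a replicate block called 932 genes, 907 shared with the fit without it, and 5.82% of those near at least 5 peaks. Deviations of same-numbered si-NT and si-FOSL1 samples correlated with r = 0.06, 0.03 and 0.04, each under 0.1, so the numbers were not taken to pair the samples. Each sample correlated best with its own number, a hint from the data and not from the design.

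Depth limits what the lone IgG sample can show: its median of 6 reads per peak leaves ratios of weak peaks uncertain.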

Other observations

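Bases next to the AP-1 sequence differed from those of windows away from peaks. Among 14614 enriched peaks with a single TGACTCA, 13.5% of copies had A before and T after it, against 7.14% of the copies found 2000 bp away, and 12.4% had G before and T after, against 6.92%. T before and A after made up 0.705% against 4.56%. These pairs did not go with more reads: the median mean FRA1 count was 57.3 for A before and T after and 73.7 for T before and A after, with widely overlapping ranges. In the 9400 enriched peaks without TGACTCA, some sequences that differ from it in 1 letter were more frequent near the centre than 2000 bp away. TGACTAA was near 12.4% of centres against 2.34% of windows, TGAATCA near 14.5% against 3.38%, and TGACGCA near 2.17% against 0.255%, while TGGCTCA was near 5.94% against 11%.

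Enriched peaks were unevenly spread over chromosomes. There were 10.1 per Mb over the chromosomes counted, 14.4 on chromosome 17, 14.1 on chromosome 19 and 5.49 on chromosome X. IgG reads per kb of peak differed too, with medians of 9.04, 9.75 and 5.71 on these, and the copy number of the line was not measured here.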
